A study of Drosophila melanogaster with 2 samples.

Results

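A promoter peak with starts on one strand is here a binding site of Rotund whose summit, the base of highest signal, lay within 500 bp of protein-coding transcript starts that all pointed the same way. Such one-strand promoter peaks were chosen by position alone, from the dm6 gene models of Ensembl release 115, among the peaks that the authors called over both replicates and kept after thresholding. There were 914 of them among the 3774 peaks on arms X, 2L, 2R, 3L, 3R and 4, and another 3 peaks off these arms were left out. A further 437 peaks lay at promoters with coding starts on both strands within 500 bp, and 2423 lay away from coding starts.

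The samples were whole Drosophila melanogaster pupae of strain rn-GFP, which make Rotund fused to enhanced green fluorescent protein (rn-eGFP). Chromatin was sheared by sonication and precipitated with an antibody to GFP, so the fusion protein and not the native Rotund was read out. The single group held 2 biological replicates, the pupal stage was unknown and the sex was not collected. Both replicates carry the transgene, all tissues of the animal are mixed, and control libraries are not analysed here, so nothing was compared between conditions and binding in a few cells cannot be told from weaker binding in many. Reads were not part of the files, so depth is unknown, and the 95% Wilson intervals given with shares reflect only the counting of peaks.

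Rotund is a zinc finger transcription factor of the Krüppel type, known in flies for its part in forming the middle segments of the leg and in patterning the antenna and wing. At a promoter that serves genes on one strand only, upstream and downstream are defined by the direction of transcription, so the place of a bound protein can be read relative to the start. Fly core promoters carry sequence elements such as the TATA box and the initiator, and many also hold GA repeats that the GAGA factor binds or the DNA replication-related element (DRE) that the DREF protein binds.

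The DNA under the summit of the strongest peaks was rich in A and T, while the window at rn itself held GA repeats upstream of the summit. The sequences below were picked to show the words counted later, with Hsp27 as a strong peak that holds none of them, so they say nothing of how often a word occurs. They are from the Release 6 (dm6) genome of RefSeq, up to 50 bp on each side of the summit and cut at the annotated start, read 5′ to 3′ in the direction of transcription. Capitals mark runs of at least 7 A bases or 7 T bases, the word TTAAAA or its complement TTTTAA, the word GAGAG or its complement CTCTC, and the word ATCGAT, in any overlap.
Ugalt: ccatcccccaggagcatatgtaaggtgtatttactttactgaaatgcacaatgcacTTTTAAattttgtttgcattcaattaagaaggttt
CG14100: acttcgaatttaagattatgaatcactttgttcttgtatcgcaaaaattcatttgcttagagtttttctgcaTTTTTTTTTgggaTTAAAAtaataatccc
CG18549: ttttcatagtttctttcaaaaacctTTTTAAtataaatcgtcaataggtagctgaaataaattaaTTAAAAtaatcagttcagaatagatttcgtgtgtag
Btk: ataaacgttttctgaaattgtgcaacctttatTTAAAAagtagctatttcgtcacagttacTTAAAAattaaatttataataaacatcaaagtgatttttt
cact: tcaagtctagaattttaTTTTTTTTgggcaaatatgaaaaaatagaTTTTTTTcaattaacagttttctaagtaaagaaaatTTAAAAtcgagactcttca
rn: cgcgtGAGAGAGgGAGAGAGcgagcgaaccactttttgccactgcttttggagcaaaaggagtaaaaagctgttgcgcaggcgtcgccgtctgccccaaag
dac: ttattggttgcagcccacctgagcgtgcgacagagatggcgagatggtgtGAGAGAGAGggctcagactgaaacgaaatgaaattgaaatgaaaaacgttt
sqz: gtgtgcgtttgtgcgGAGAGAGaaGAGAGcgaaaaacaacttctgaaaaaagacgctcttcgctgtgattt
RpS28b: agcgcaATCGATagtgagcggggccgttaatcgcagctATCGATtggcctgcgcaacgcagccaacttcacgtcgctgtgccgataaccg
Hsp27: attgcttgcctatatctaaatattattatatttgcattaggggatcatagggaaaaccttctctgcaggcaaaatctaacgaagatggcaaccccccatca
The Ugalt window is X:2703853-2703943 on the minus strand and the CG14100 window is 3L:19590559-19590659 on the minus strand. The CG18549 window is 3R:12449123-12449223 on the plus strand, the Btk window is 2L:8277794-8277894 on the minus strand, and the cact window is 2L:16325705-16325805 on the minus strand. The rn window is 3R:7309781-7309881 on the minus strand, the dac window is 2L:16486404-16486504 on the minus strand, the sqz window is 3R:19164140-19164210 on the plus strand, and the RpS28b window is X:9554533-9554622 on the plus strand. The Hsp27 window is 3L:9383876-9383976 on the plus strand. Among the sequences shown, runs of T stood in the cact and CG14100 windows. The word TTAAAA or its complement stood in the first 5, GA repeats in those of rn, dac and sqz, ATCGAT in that of RpS28b, and none of these in that of Hsp27.

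The strongest peak of the whole set was a one-strand promoter peak at the reach of 500 bp. It lay at Ugalt (FBgn0024994), which encodes a UDP-galactose transporter, at X:2703751-2704016, with a signal of 1133 in the pooled list. Signal is the peak strength reported by the authors' peak caller. It was not put on a common scale across lists, and pooled values were mostly larger than those of single replicates. In the replicates' own ranked lists the Ugalt peak had signals of 586 and 557, and its summit stood at −41 bp from the nearest start, where negative positions are upstream. The next was at CG14100 (3L:19590492-19590742), with a signal of 1106, replicate signals of 529 and 585 and a summit at −85 bp. After it came mRpL41, a subunit of the mitochondrial ribosome, with 980 in the pooled list, 492 and 486 in the replicates and a summit at −140 bp. Each of the 12 strongest members had a peak in the thresholded set of both replicates.

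The rest of these 12 peaks stood at genes of varied function. PNPase, an exoribonuclease of mitochondria, had 831 (428 and 398 in the replicates), with its summit in an untranslated exon at 79 bp. Fkbp14, a peptidyl-prolyl isomerase of the endoplasmic reticulum, had 662 (366 and 301) at −126 bp, and GstE13, a glutathione S-transferase, had 634 (322 and 311) at 84 bp. The polyhomeotic gene ph-p, a subunit of Polycomb repressive complex 1, had 621 (280 and 324) at −491 bp from an internal start. Its neighbour ph-d, a duplicate of it, had 190, with 111 in replicate 1, at −309 bp. How reads that match both copies were placed is not given in the sources used here, so the split of signal between them is uncertain. The initiation factor eIF6 had 594 (301 and 305) at −124 bp, the small heat shock gene Hsp27 580 (290 and 284) at −137 bp, and gish, a casein kinase I, 528 (269 and 264) at −156 bp. CG18549 had 622 (319 and 303) at −123 bp and CG13921 had 550 (299 and 241) at −137 bp. As at ph-p, the positions at PNPase, Fkbp14 and gish are from an internal start, not the 5′ end of the gene. The one-strand class of some of these 12 depends on the setting. At a reach of 1000 bp no one-strand peak was counted at Ugalt, mRpL41 or PNPase. With the starts of all transcripts none was counted at eIF6.

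Over all 914 members the signal ran from 2.32 to 1133, with a median of 83.0 and quartiles of 61.3 and 134. The median was 88.9 (quartiles 64.7 and 155) at both-strand promoters and 77.3 (58.9 and 111) away from coding starts. Of the 100 strongest peaks of the set, 35 were one-strand promoter peaks, 25 lay at both-strand promoters and 40 lay elsewhere. The median width was 296 bp in each class. Of the 914 members, 19 (2.08%) overlapped the member before them on the arm, so not all are separate sites. Overlapping members can share the same replicate peak. Members held from 21.7% of the peaks on arm 3R (192 of 886) to 27.7% on X (190 of 686) among the 5 long arms. The single peak on arm 4 was a member, at PlexA, a semaphorin receptor, with 216 (102 and 112 in the replicates). The strongest member on 2L was at Btk, a Tec family tyrosine kinase, with 505 (256 and 247).

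Summits stood mostly upstream of the start. Of the 914, 713 were upstream of the nearest coding start, 78.0% (interval 75.2 to 80.6), and the median position was −144 bp (quartiles −240 and −22.5). Of these 713 summits, 269 or 37.7% (34.2 to 41.3) lay inside the gene of that start, upstream only of an internal start. The 50 bp bin that held the most summits ran from −200 to −150 bp, with 147 peaks, of which 86 had a partner in both replicate sets. Within 50 bp of the start on either side lay 91 summits, 9.96% (8.18 to 12.1). Downstream, the bin from the start to 50 bp held 33 and those beyond held 9 to 29. The replicates gave nearly the same place, with median positions of −141 bp for the 902 members that had a ranked peak in replicate 1 and −144 bp for the 903 in replicate 2. Members on plus-strand starts had a median of −137 bp and those on minus-strand starts −150 bp.

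**Figure D1:**
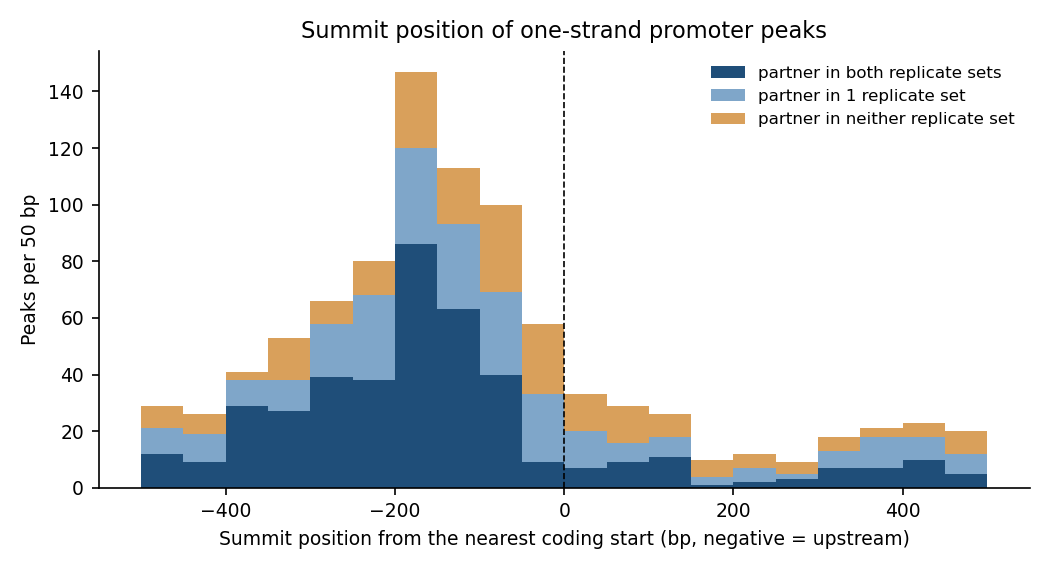
Number of one-strand promoter peaks (y axis, peaks per 50 bp) by the position of the summit from the nearest coding start (x axis, bp, negative upstream), with the colours giving the replicate sets that hold a partner. The tallest bin, from −200 to −150 bp, holds 147 peaks, and 713 of the 914 summits are upstream of the start.

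Strength and recovery in the replicates varied with position. Summits more than 100 and up to 200 bp upstream had a median signal of 96.5 (260 peaks), and 57.3% (51.2 to 63.2) of them had a partner in both replicate sets. Those 1 to 100 bp upstream had a median of 69.5 (158 peaks), with 31.0% (24.3 to 38.6) in both sets. From the start to 100 bp downstream the median was 60.8 (63 peaks), with 25.4% (16.3 to 37.3) in both sets. Farther than 200 bp upstream the values were 89.4 and 52.2% (46.5 to 57.8; 295 peaks), and more than 100 bp downstream 74.4 and 33.3% (26.0 to 41.6; 138 peaks). The intervals of the bands beyond 100 bp upstream did not overlap those of the bands nearer to or past the start.

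The same pattern appeared when members were ranked by signal and split into 4 groups of 228 or 229. The median position moved from −78.0 bp in the weakest group to −124, −162 and −172 bp in the next ones. Upstream summits made up 66.8% (60.5 to 72.6) of the weakest group and 84.7% (79.5 to 88.8) of the strongest. Members in both replicate sets had a median position of −165 bp, and those in neither −81.5 bp.

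Replicate support was measured by a partner, a peak sharing at least 1 bp, in the thresholded set of each replicate. A partner in both sets was found for 414 members, 45.3% (42.1 to 48.5), where 41.5% of all peaks on the arms had one. The share was 38.7% away from coding starts, 6.62 points lower (Newcombe interval of the difference 2.87 to 10.4), and 49.4% at both-strand promoters, a difference of −4.13 points whose interval (−9.80 to 1.54) includes 0. With promoter peaks taken from single replicate sets there were 608 one-strand peaks in replicate 1 and 535 in replicate 2. Replicate 1 recovered 586 members, 64.1%, the same share as at both-strand promoters. Replicate 2 recovered 516, 56.5% against 64.8% at both-strand promoters, a difference of −8.30 points (−13.7 to −2.72). A partner in the conservative set, the authors' stricter list over both replicates, was found for 794 members or 86.9%, where 85.2% of all peaks had one. Neither replicate set held a partner for 226 members, 24.7% (22.0 to 27.6), where 27.2% of all peaks on the arms had none. That share was 20.6% at both-strand promoters and 29.4% away from coding starts.

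Recovery was steep in signal. Both sets held 6 of 229 members of the weakest of these signal groups, 20 of 228 and 160 of 228 of the middle ones and 228 of 229 of the strongest. The pooled list and the replicate lists come from the same libraries, so this is no independent check of a peak. The strongest member with no partner in either set was at Dp, the dimerisation partner of E2F, with 87.6 (42.4 and 43.7 in the replicate ranked lists) and a summit at 402 bp. A second Dp peak at −178 bp, named after its values were seen, had 212 (121 and 89.9) and a partner in both sets.

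Signals of the replicates can be set side by side for the 891 members with a ranked peak in both. Over these members the median was 46.6 in replicate 1 and 41.0 in replicate 2. The log2 ratio of replicate 1 to replicate 2 had a median of 0.13 (quartiles −0.19 and 0.50). Signals were over 2-fold apart for 90 members. The replicate lists are not on a common scale, so the ratio and this count include any difference in scale between the lists. Among the 414 members in both sets the log2 signals correlated with a Pearson r of 0.872 and a Spearman rho of 0.811, as a description across peaks of the same pair of libraries. Summits of these 414 stood a median of 16.0 bp apart, and 370 were within 50 bp.

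**Figure D2:**
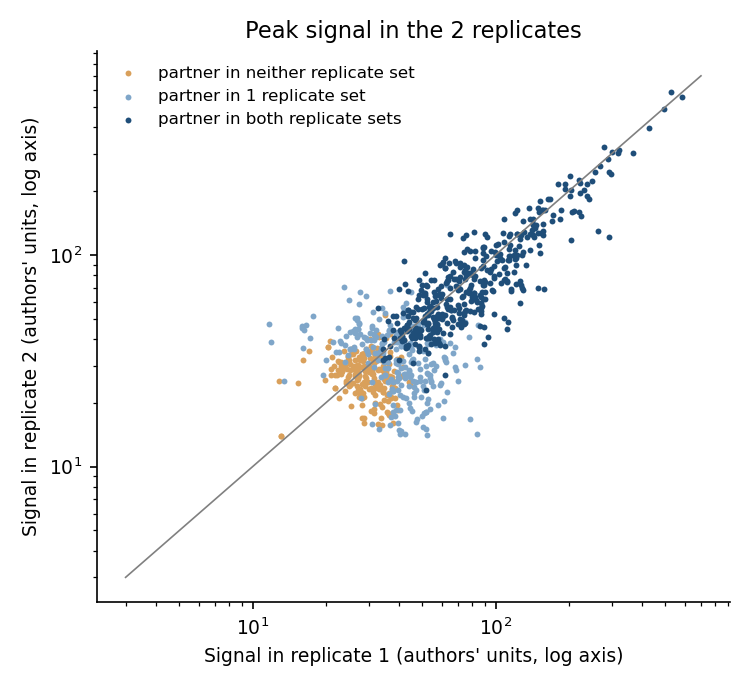
Signal of each one-strand promoter peak in the ranked list of replicate 1 (x axis) and of replicate 2 (y axis), in the authors' units on log axes, for the 891 peaks ranked in both; the line marks equal values and colours give the replicate sets with a partner. Peaks with partners in both sets lie along the line, and those with none crowd at low signal.

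Many of these promoters lay inside genes. The nearest start was not the 5′ end of its gene for 346 members, 37.9% (34.8 to 41.0), against 32.5% of the 14770 annotated coding starts that have no coding start of the other strand in reach. Both replicate sets held a partner for 46.2% (41.1 to 51.5) of members at internal starts and 44.7% (40.7 to 48.8) of those at 5′ ends, with overlapping intervals. By the place of the summit, 389 members (42.6%) were between genes, 347 in introns, 158 (17.3%) in untranslated exons and 20 (2.19%) in coding exons. Of the intron summits, 308 were inside the gene whose start was nearest. Among summits downstream of the start, 55.7% (48.8 to 62.4) were in untranslated exons.

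Most members had few starts in reach. A single gene had starts in reach for 895 members, and a single start position for 760. Most distinct starts were in reach at cact, the fly inhibitor of Dorsal, whose signal was 148 (64.9 and 79.7 for the replicates), at Nacalpha with 64.4 (26.2 and 36.9) and at Galphao, a G protein subunit, with 62.5 (15.1 in replicate 2 and no ranked peak in replicate 1). A start of a non-coding transcript lay on the other strand within 500 bp for 40 members (4.38%), and a coding start of the other strand within 1000 bp for 104 (11.4%). One-strand peaks were 67.7% (65.1 to 70.1) of all 1351 promoter peaks, and 73.2% when the reach was 250 bp. Of the 19253 annotated coding starts 76.7% were one-strand, but these were classed by a window around the start and not around a summit, so the shares cannot be compared directly. Minus-strand starts took 55.4% (52.1 to 58.6) of members against 50.2% of annotated one-strand starts, and 51.9% when the reach was 250 bp.

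At the limit of 500 bp, the members just inside were at CG31612, with the summit at 499 bp and a signal of 184 (103 and 81.0), and at CG9981, at −499 bp with 53.5 (26.5 and 27.4). The peaks just outside were at pAbp, which encodes a poly(A) binding protein, just downstream of the limit with 89.6 (39.6 and 50.3), and at CG43736, at −502 bp with 180 (73.3 and 104). Both signals outside the limit fell between those inside it.

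Summits of the stronger peaks lay in a stretch rich in A and T, which the weakest did not show. G and C made up 36.5% ± 11.2 (SD, n = 914) of the window reaching 50 bp to each side of the summit, 39.2% ± 10.7 of an equal window centred 500 bp upstream and 45.3% ± 9.78 of one 500 bp downstream. It was 31.8% ± 9.67 at both-strand promoter peaks (n = 437) and 34.9% away from coding starts (n = 2423). By signal group, from weakest to strongest, GC content was 42.6, 37.7, 34.7 and 30.9%. GC content also moved with position, from 33.7% ± 10.2 at summits more than 100 and up to 200 bp upstream (n = 260) to 41.6% ± 11.5 at summits 1 to 100 bp upstream (n = 158). Within that first band the strongest signal group had 29.6% ± 7.42 (n = 86) and the weakest 37.1% ± 10.5 (n = 48). How far GC content goes with position and how far with signal was not tested. Promoters with no peak also had an AT-rich stretch upstream of the start. A running mean aligned on the start was taken for the 888 starts nearest to a member and the 9686 one-strand starts with no peak in reach. At −190 bp, the highest point without a peak, A and T made up 64.1% with a member and 63.3% without. At −260 bp, the highest point with a member, the values were 64.5% and 62.9%. Nearer to the start the order was reversed, with 57.7% at −100 bp with a member and 61.3% without. Across members, signal and GC content had a Spearman rho of −0.397, a description over 914 peaks that share their libraries.

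**Figure D3:**
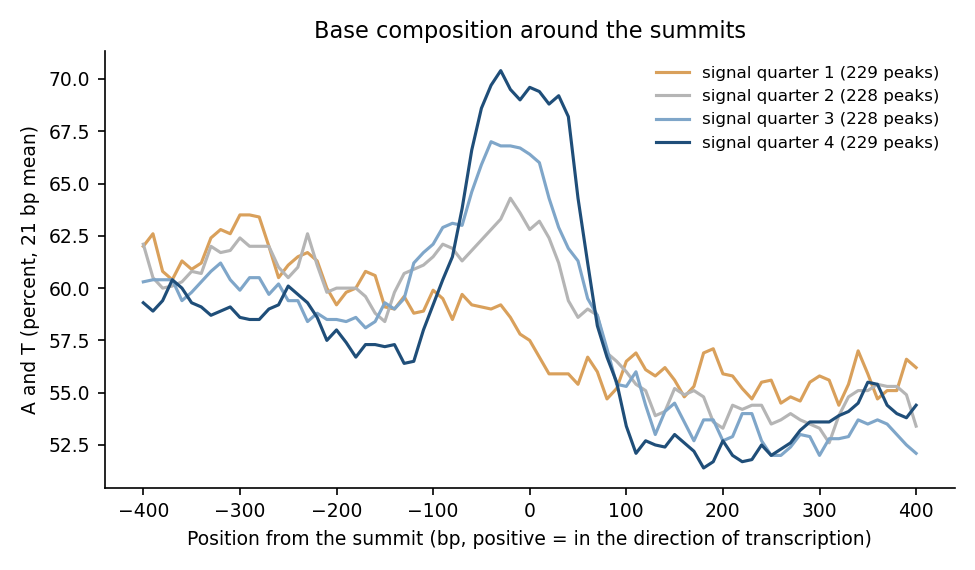
Percent of A and T in a running 21 bp mean (y axis) by position from the summit (x axis, bp, positive in the direction of transcription) for the 4 signal groups, the darkest line being the strongest. At the summit the strongest group reaches 69.6% and the weakest stands at 57.5%.

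Short words were counted within 50 bp of each summit, on both strands unless said. TTAAAA, an AT-rich word, was in 30.9% (27.9 to 33.9) of members, 21.2% of the windows 500 bp upstream and 10.9% of those 500 bp downstream. It was in 43.5% of both-strand promoter peaks, so that members were 12.6 points lower, a difference of −12.6 (−18.1 to −7.12), and in 27.9% (26.2 to 29.8) of peaks away from coding starts. The run AAAAAAA was in 19.0% (16.6 to 21.7) of members against 11.4% upstream and 9.19% downstream, in 15.8% at both-strand promoters and in 17.5% (16.1 to 19.1) of peaks away from coding starts. It stood on the coding strand in 11.1% (9.18 to 13.2) and on the template strand in 8.86% (7.19 to 10.9), with overlapping intervals. TATAAA was in 19.9%, with 16.4% upstream, 8.97% downstream and 19.4% in peaks away from coding starts. At both-strand promoters it was in 25.6%, a difference of −5.72 points (−10.7 to −0.992). For these words the intervals of members and of peaks away from coding starts overlapped.

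GAGAG, the word bound by the GAGA factor, ran the other way between the promoter classes. It was in 13.6% of members and 5.26% of both-strand promoter peaks, a difference of 8.30 points (5.05 to 11.2). Within members the interval at the summit (11.5 to 15.9) overlapped those of the windows 500 bp upstream (12.6%, 10.6 to 14.9) and downstream (14.9%, 12.7 to 17.3). Away from coding starts 11.7% of peaks held it. From the weakest to the strongest signal group its share was 17.5, 17.5, 11.0 and 8.30%, while TTAAAA went from 20.1 to 27.2, 35.1 and 41.0%. The GC content of the windows moved with these shares, as given above.

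The other words were less frequent. The homeodomain word TAATTA was in 8.53% (6.89 to 10.5) of members, against 12.6% (9.80 to 16.0) of both-strand promoter peaks. It was in 8.38% of peaks away from coding starts and in 7.44% of windows 500 bp upstream of members. The DRE word TATCGATA was in 1.31% of members and 2.97% of both-strand promoter peaks, and its core ATCGAT, which overlaps it, in 4.27% and 6.64%. These DRE words were in 1.31 and 5.03% of windows 500 bp upstream of members. Away from coding starts they were in 0.165 and 2.56% of peaks. The E-box CAGCTG was in 3.28% (2.31 to 4.65) of members, 4.70% (3.51 to 6.28) upstream and 5.69% (4.36 to 7.38) downstream, with overlapping intervals. Core promoter words GGTCACAC, GTATTTTT and CATCNCTA were in 0.656, 1.97 and 1.20% of members, and the Zelda word CAGGTAG in 0.328%. A word found in a window is a description of its letters and not a shown binding site.

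Promoters with a member were then compared with promoters of the same kind and no peak, in the window from 250 bp before to 50 bp after the start. There were 888 distinct starts nearest to a member and 9686 one-strand starts with no peak in reach. GAGAG was in 52.0% (48.7 to 55.3) of the first and 31.8% (30.9 to 32.8) of the second. TATAAA was in 34.7% (31.6 to 37.9) against 45.1% (44.1 to 46.1), and on the coding strand 45 to 20 bp upstream of the start, where TATA boxes act, in 3.60% against 9.79%. The initiator word TCAGT within 10 bp of the start, coding strand, was in 20.3% (17.8 to 23.0) against 14.2% (13.5 to 14.9). TTAAAA was in 49.9 and 49.6%, with overlapping intervals. AAAAAAA was in 30.3% against 25.9%, and on the template strand alone in 19.0% (16.6 to 21.7) against 13.7% (13.0 to 14.4). On the coding strand it was in 14.2% against 14.5%, with overlapping intervals. GC content of the window was 42.4% ± 7.27 (SD) with a member and 39.8% ± 8.09 without.

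**Figure D4:**
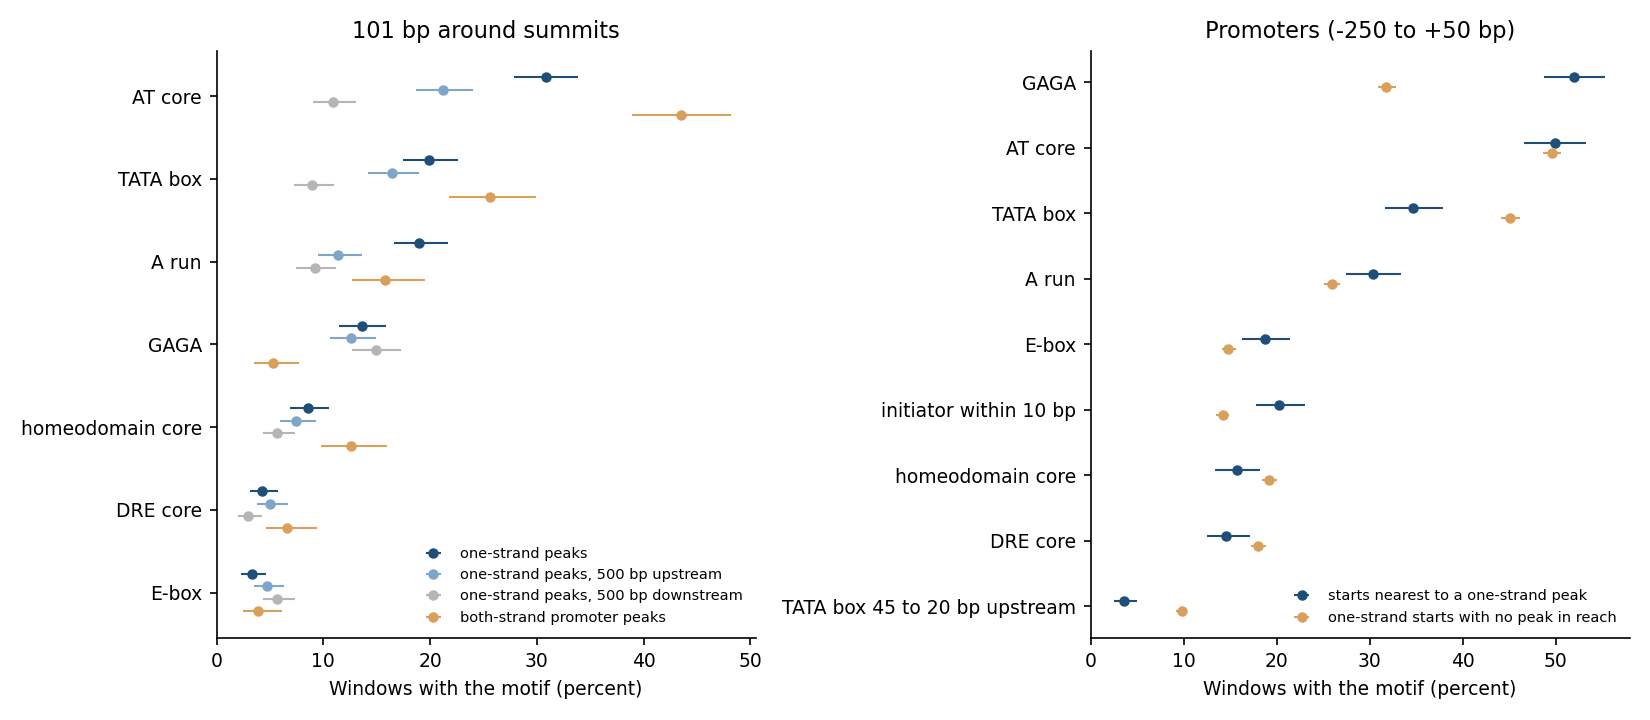
Percent of windows that hold a word (x axes), with 95% Wilson intervals as bars: on the left within 50 bp of summits and in equal windows 500 bp away, on the right promoters nearest to a one-strand peak and one-strand promoters with no peak. TTAAAA (AT core) reaches 30.9% at summits against 10.9% downstream, and GAGAG (GAGA) is in 52.0% of promoters with a peak against 31.8% without.

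A one-strand promoter peak was found at 842 of 13945 protein-coding genes, which is 6.04%. Each list below is read against that percentage, with no test, and the lists were chosen with earlier results of these data known. Genes with such a peak were long, with a median length of 6687 bp against 2069 bp for the other genes, and a peak elsewhere in the gene body was found at 26.4% (23.5 to 29.4) of them against 5.33% (4.96 to 5.73). Names made only of a CG number, given to genes without a described function, were held by 29.9% of them and by 43.7% of all genes. Of the 842 genes, 74 had more than 1 such peak. The highest number was 4, at Ptpmeg2, a protein tyrosine phosphatase, at Rtnl1, a reticulon of the endoplasmic reticulum, at mamo, a zinc finger protein, and at psq, a pipsqueak family DNA-binding protein. These names were picked after seeing the values.

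In the list of leg and antenna patterning genes, which includes Rotund's own gene, 5 of 21 had a peak, 23.8% (10.6 to 45.1). With either replicate's set alone it was 3. The peak at rn (FBgn0267337, 3R:7309683-7309978) had a signal of 90.8, rank 398 among the members, with 48.8 and 44.8 in the replicates, a partner in both replicate sets and its summit at −202 bp. The gene bowl, an odd-skipped family zinc finger gene of leg segmentation, had 286 (139 and 147) at −191 bp, with a partner in both sets. The nuclear factor gene dac had 66.8 (32.6 and 33.2) at −456 bp, with a partner in neither. The homeobox gene Dll, named after its values were seen, had 58.7 (28.2 and 38.1) at −55 bp. The gene sqz, a zinc finger relative of rn, had a peak at −21 bp with 55.9 (32.9 and 31.9) and one that overlaps it, at 211 bp, with 21.1. Both sqz peaks had a partner in the set of replicate 1 only, and with replicate 2 alone sqz had 0 peaks. The summit windows at rn and dac and of the first sqz peak held the GA repeats printed above, and those of bowl, Dll and the second sqz peak held no GAGAG, a word found in 13.6% of all members.

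Counts for signalling pathways were of a few genes each. In the EGFR pathway 5 of 19 genes had a peak, 26.3% (11.8 to 48.8). These were the ligand gene spi with 151 (88.6 and 61.9 in the replicates), the phosphatase gene csw with 139 (84.4 and 55.5), the inhibitor gene aos with 122 (58.3 and 65.3), and the ETS factor genes pnt and aop, with 84.1 and 68.4. In the Hippo list 3 of 13 genes had one: the kinase gene hpo with 123 (59.4 and 62.2), Mer with 68.6 in replicate 1 and 28.5 in replicate 2, and the cadherin gene ft with 95.9 (44.7 and 53.7). In the Notch list it was 3 of 14, with numb, which antagonises Notch, at 159 (75.9 and 87.6), the ubiquitin ligase gene mib1 at 60.4 and the coactivator gene mam at 53.9, the latter pair in neither replicate set. With replicate 1 alone the Notch count was 1. Wnt and Hedgehog genes had 1 of 18, the kinase gene sgg with 142 (67.4 and 76.9), and the Dpp pathway 0 of 10. Intervals of the EGFR, Hippo, Notch and leg lists lay above 6.04%, as did those of the ecdysone and ribosomal protein lists below. The pathway and leg counts, however, rest on 3 to 5 genes each, and those of EGFR and Notch moved with the reach. At a reach of 250 bp EGFR had 2 genes and Notch 1, and at 1000 bp they had 9 and 5. At the same reaches the Hippo list had 2 and 4 genes and the leg list 5 and 7.

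Genes of the ecdysone response, which drives metamorphosis, had a peak at 4 of 19, 21.1% (8.51 to 43.3). Eip93F had 147 (87.4 and 54.3) with its summit at −48 bp, the nuclear receptor gene Eip75B 102 (59.8 and 38.2) at 38 bp, the ETS factor gene Eip74EF 88.9 (58.5 and 38.5) at −260 bp, and the nuclear receptor gene ftz-f1, named after its values were seen, 48.4 (31.8 and 19.7). With replicate 2 alone the ecdysone count was 2. Among chromatin genes 3 of 24 had a peak, ph-p and ph-d as above and Trl, which encodes the GAGA factor, with 167 (95.2 and 74.0) at 112 bp. Cyclins and mitotic kinases had 1 of 18, CycE with 68.4 and a partner in neither replicate set, and 0 with either replicate alone.

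Ribosomal protein genes had the longest roll of members, 15 of 93 or 16.1%, with low signal. The interval of the share lay above 6.04% and reached 24.9%. The count was 23 at a reach of 250 bp and 9 at 1000 bp. The count was 6 with the set of replicate 1 alone and 7 with that of replicate 2 alone. The median of their strongest peaks was 69.1, and for 2 of the 15, RpL23A and RpS28b, the strongest peak had a partner in both replicate sets. RpL23A had 138 (42.0 and 93.3) at −72 bp, RpS28b 106 at −40 bp, and RpL24 94.9 (44.4 and 46.1) at −1 bp. A further count of 18 ribosomal protein genes had a both-strand promoter peak. Of the other housekeeping lists, initiation factors had 4 of 44, basal transcription 2 of 38 (1 with replicate 2 alone), autophagy 1 of 20 (Atg8a, 98.0), Rab GTPases 1 of 31 (Rab5, 194), V-ATPase 1 of 33 (0 with either replicate alone) and mitochondrial ribosomal proteins 1 of 73, with mRpL41 that one gene. No one-strand peak was found at 48 proteasome genes (upper bound of the share 7.41%), 87 respiratory chain genes (4.23%) or 33 tRNA synthetase genes (10.4%), whereas both-strand promoter peaks were found at 5, 6 and 6 of them.

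Counts for tissue markers were 0 or 1 per list. The neuronal gene elav had 159 (64.4 and 91.9 in the replicates), 1 of 7 neuron markers (14.3%, interval 2.57 to 51.3), and the muscle gene sls had 153 (66.9 and 83.4), 1 of 10 muscle markers (1.79 to 40.4), each of these intervals including 6.04%, and both counts were 0 at a reach of 250 bp. No peak was found at 8 fat body markers (upper bound 32.4%) or at 179 chemoreceptor genes (upper bound 2.10%), and 1 was found at 114 cuticle protein genes, Cpr65Au with 36.2 in replicate 1 and no ranked peak in replicate 2, and with a partner in neither replicate set. The pigment gene y, a common marker of fly transgenes, had 43.3 (21.9 and 23.4) at 31 bp, with a partner in neither replicate set.

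**Figure D5:**
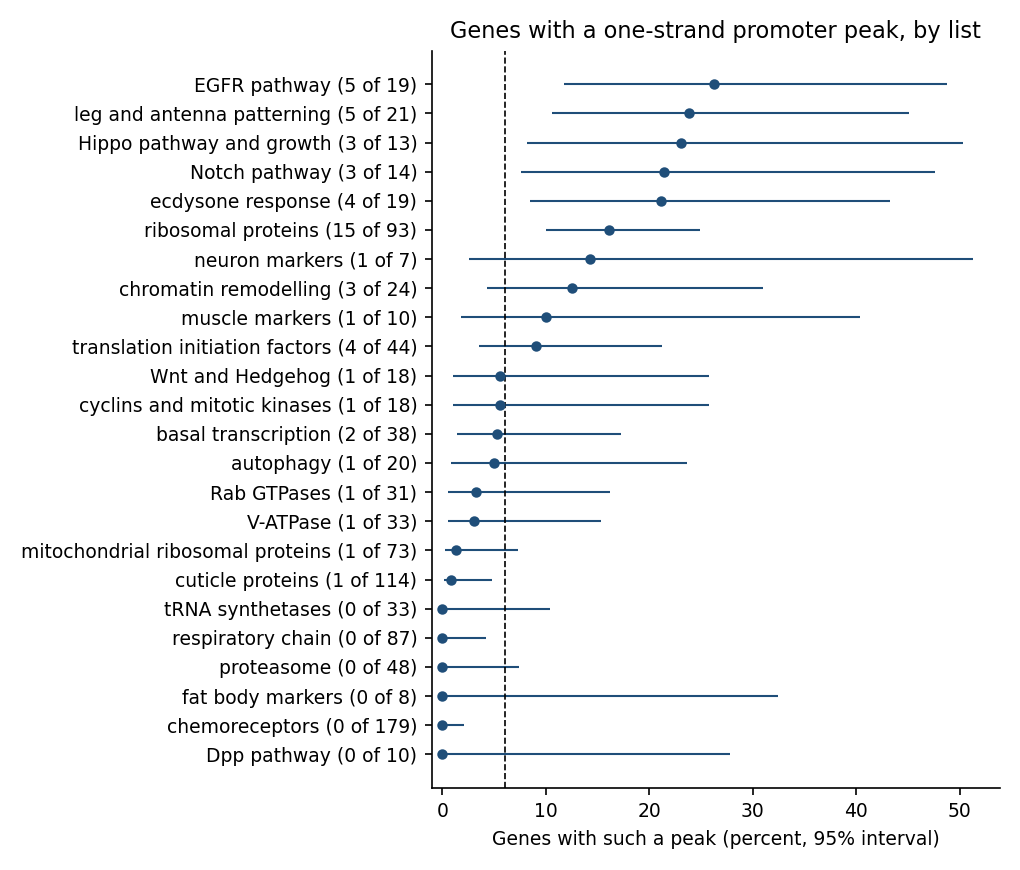
Percent of the genes of each list with a one-strand promoter peak (x axis), with 95% Wilson intervals as bars; the dashed line marks the 6.04% of all protein-coding genes. The EGFR list stands highest with 5 of 19 genes, and no chemoreceptor gene of 179 had such a peak.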

How the data were processed

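Rotund-eGFP chromatin from 2 replicates was measured by ChIP-seq. Peak positions are on dm6, per the labels. The deposited signal values are the authors' caller's peak strength, not scaled between lists. The deposited score is the irreproducible discovery rate (IDR) of a peak, rescaled by the authors to at most 1000, and every thresholded peak used had at least 830. The −log10 of the IDR stands in the deposited ranked list and was used for the stricter threshold of 0.001. The read aligner is not given in the sources used here, nor is the peak caller, and read depth is unknown.

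Summits were placed on Ensembl release 115 (BDGP 6.54) starts and RefSeq Release 6 sequence, and coordinates are 1-based. A replicate value is the strongest overlapping peak in that replicate's ranked list. No p-value was computed, since there is 1 group. Shares carry Wilson intervals and differences Newcombe intervals. The counting was tested on simulated data. Alternatives were the conservative set, each replicate alone, other reaches, all transcripts, narrower and wider motif windows, a stricter overlap, and the IDR of 0.001.

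Named genes were rn, sqz and y, the 12 strongest members, up to 3 per list, the strongest per arm and without replicate partner, those nearest the limit and those with most starts or an A run. The members and lists were chosen with earlier results of these data known. The work used matplotlib 3.10.9, scipy 1.17.1, pandas 2.3.3 and numpy 2.4.6 under Python 3.11.15.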

Additional observations from a re-analysis of the deposited data

Results flagged for a closer look

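The ranked list over both replicates holds peaks that reach the threshold score of 830 and yet are absent from the thresholded set, 82 in all on the arms, and 23 of them lay at one-strand promoters. They were picked out because they are signal in data that the comparisons did not use. The strongest were at larp, with a signal of 608 and the summit at −341 bp, at cbt, with 195 at −373 bp, and at Nuak, with 138 at −106 bp. Why these peaks are absent from the thresholded set is not given in the sources used here.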

How the results depend on the processing

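The conservative set and the starts of all transcripts moved none of the main values beyond the spread: the number of members was 878 and 974, the upstream share 79.6 and 76.4%. The sets called from single replicates gave 535 to 608 members, a one-strand share of promoter peaks of 64.7 to 67.7% and an upstream share of 80.8 to 84.7%. With an IDR of at most 0.001 there were 540 members, 82.0% of them upstream and 75.9% with a partner in both replicate sets. A reach of 250 bp gave a one-strand share of 73.2% and an upstream share of 83.3%, and a reach of 1000 bp an upstream share of 70.0%. AAAAAAA was in 10.9% of narrower windows (25 bp to each side) and 29.0% of wider ones (100 bp to each side), which hold fewer and more bases. Upstream summits were the majority under every alternative run. Of 24 gene lists, the count was classed as moved in 7 and in 6 with a single replicate and in 8 at the stricter IDR. At that IDR the leg and antenna list held 2 genes. The count was classed as moved in 11 lists at a reach of 1000 bp and in 10 at 250 bp. With the conservative set 4 lists were so classed and with all transcripts 0. Among the named genes, 13 were so classed at a reach of 1000 bp, 17 at 250 bp and 2 with all transcripts. Smaller changes were not classed as moves. With all transcripts ribosomal proteins went from 15 to 14 and initiation factors from 4 to 3. With the conservative set ribosomal proteins went to 12. No paired analysis was possible because there is 1 group. Unknown depth limits what a missing peak can mean.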
